A study of Mus musculus with 24 samples.

Results

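Efemp2, Adam10, Dpysl2, Gnai2, Reep3, Sulf2, Hdgf, Gsk3b, Plec and Zdhhc20 are 10 protein-coding genes of 56748 genes counted, chosen by their read counts, which were lower in mouse liver endothelial cells that carried a hairpin against P16 than in cells with a control hairpin. The study isolated Cd31+ cells, taken as liver endothelial cells, and Cd146+ cells, taken as sinusoidal endothelial cells, with magnetic beads from livers of female C57BL/6 mice aged 3 months. Each population was transduced in culture with 1 of 4 lentiviruses: nc shRNA, a non-coding control hairpin, or P16 shRNA, both in the pLKO.1 vector, and an empty vector or the P16 cDNA, both in a vector that also codes for GFP and puromycin resistance. Poly(A) RNA was sequenced in 3 libraries for each of the 8 groups, 24 in all, and the study's methods place the assays 1 week after transduction. No genetic modification of the mice is named, all groups carried a lentivirus, and the sources used here do not say whether P16 shRNA was 1 hairpin sequence or several.

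The question was whether P16 overexpression moves the same 10 genes the other way. P16 is the product of Cdkn2a. It binds the cyclin D-dependent kinases, keeps the retinoblastoma proteins in their growth-restraining form and is best known for halting the cell cycle in senescent cells. A hairpin expressed from a lentivirus is cut to a small RNA that guides the silencing machinery to transcripts it pairs with. Full pairing leads to cleavage of the intended transcript, and pairing of a short stretch near the start of the guide can lower other transcripts, mostly through their 3′ untranslated regions.

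The 10 genes do not form a known pathway. Efemp2 (fibulin-4) is an extracellular protein needed to assemble elastic fibres, Sulf2 removes sulfate groups from heparan sulfate at the cell surface, and Adam10 is a membrane protease that releases the outer part of surface proteins, Notch receptors among them. Gnai2 is an inhibitory G protein subunit, and Gsk3b is a kinase that marks beta-catenin for destruction. Dpysl2 binds tubulin, and Plec (plectin) links intermediate filaments to other structures of the cell. Reep3 shapes the endoplasmic reticulum, Zdhhc20 attaches palmitate to proteins, and Hdgf is a chromatin-binding growth factor.

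Because 9 of the 10 genes hold a short word in their 3′ untranslated region, and Efemp2 does not, the sites are shown first. The word CCGCT was named by an earlier account of the same hairpin contrast, so its presence here is a description, and the longer word ACCGCT was chosen after its values were seen. One site is shown for each gene that holds the word in its 3′ untranslated region, read 5′ to 3′ on the transcript strand in GRCm38 (GENCODE transcripts), with the word in capitals.
Adam10, chr9:70779598-70779627, plus strand: agcaaggccaaaACCGCTagagaaacaatg
Dpysl2, chr14:66803097-66803126, minus strand: attgtaggatttACCGCTagatggttttga
Gnai2, chr9:107615077-107615098, minus strand: ggccACCGCTgactgtgctccc
Reep3, chr10:67013680-67013709, minus strand: caagatgaataaACCGCTaacagatcaact
Sulf2, chr2:166074239-166074268, minus strand: accacatacatgACCGCTcacacgtaacca
Gsk3b, chr16:38242262-38242291, plus strand: tgagtaatggccACCGCTccttccttcctt
Zdhhc20, chr14:57836185-57836214, minus strand: agggaaagaaatACCGCTttttttattaga
Hdgf, chr3:87916102-87916131, plus strand: aggaaaataaagCCGCTgattactatcctg
Plec, chr15:76172127-76172156, minus strand: catcctgccttcCCGCTctgcatgtggccg

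The Gnai2 window begins at the 5′ edge of its exon and is therefore shorter. Efemp2 holds no such word in its 3′ untranslated region and 6 in its coding region, each of them within ACCGCT, and the targeted gene Cdkn2a holds the longer word in its coding region. These sites are shown for comparison.
Efemp2, coding, chr19:5477933-5477962, plus strand: atgagtgtcgttACCGCTattgccagcatc
Cdkn2a, coding, chr4:89276683-89276712, minus strand: tggtctttgtgtACCGCTgggaacgtcgcc

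In the 3′ untranslated regions, 9 of the 10 genes held CCGCT, 20 times in all, against 20.5% of 20980 genes with an annotated 3′ untranslated region. These regions were long, with a median of 1920 bases against 851 for all genes, and 9 of the 10 were longer than that median. Among genes whose 3′ untranslated region was 80 to 125% as long as each member's own, the share with the word was 16.4 to 52.1%. The longer word ACCGCT was present in 7 of the 10 against 5.48% of all genes and 3.99 to 15.9% of genes of like length. Median GC content was 45.5% in the 10 and 43.3% in all genes. In the coding region CCGCT was present in 7 of the 10 and in 51.3% of all genes, and ACCGCT in 4 of the 10 and in 18.9%. The 6 copies of ACCGCT in the coding region of Efemp2 set it apart by number: 5 of 20980 coding regions (0.0238%) held 6 or more. With coding and 3′ untranslated regions together, ACCGCT was present in 9 of the 10 and in 23.2% of all genes, and Hdgf was the exception. The sequence of the hairpin is not given in the sources used here, so no match to it was sought, and a matching word is neither a binding site nor a cause.

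**Figure D1:**
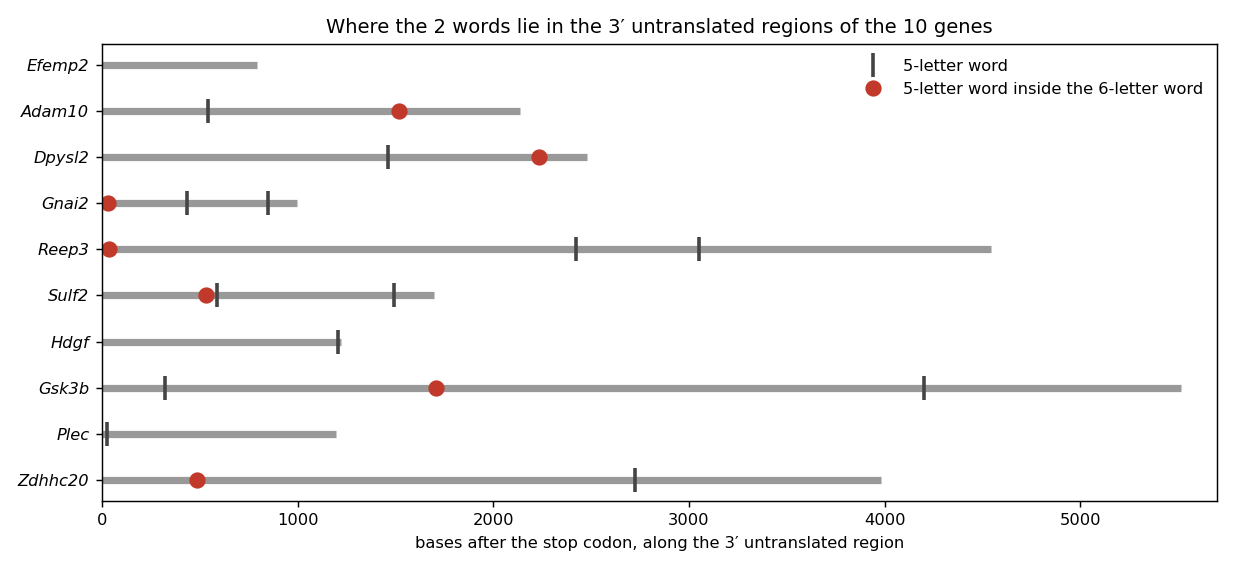
Position of the word CCGCT (ticks) and of copies that lie within ACCGCT (red points) along the 3′ untranslated region of each gene, with the distance from the stop codon in bases on the horizontal axis and the grey bar giving the length of the region. The 20 words of 9 genes lie at various distances from the stop codon, and Efemp2 has none.

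Outside the 10 genes, the words went along with small differences in the same hairpin contrast, from which the word had been named. In Cd31+ cells the median log2 fold change of P16 shRNA against nc shRNA was 0.04 over 9240 genes without CCGCT in the 3′ untranslated region. It was -0.09 over 3114 genes with it and -0.18 over the 833 of these that held ACCGCT. The shares of genes lower were 45.3% without the word, 60.4% with it and 67.0% with ACCGCT. In Cd146+ cells the medians were 0.07 (9668 genes), -0.13 (3220 genes) and -0.22 (855 genes), with 43.9%, 60.4% and 69.1% of genes lower. With P16 against the empty vector the medians were 0.03, -0.01 and -0.03 in Cd31+ cells and -0.01, 0 and 0 in Cd146+ cells. The shares lower were then 45.2%, 51.7% and 54.2% in Cd31+ cells and 51.5%, 50.4% and 50.2% in Cd146+ cells. These sets of genes were not matched for length of the 3′ untranslated region, and the part of length was not tested.

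The libraries held 15409767 to 26470392 counted reads (median 20329205), and single counts of the 10 genes ran from 264 for Dpysl2 to 23834 for Plec. Cdkn2a, the targeted gene, was counted as 1 gene, so transcripts for p16Ink4a and p19Arf cannot be told apart. Levels are given in TMM-scaled CPM: the count divided by the library's scaled total, times a constant shared by all libraries. The scaled total is the library's total count times its TMM factor, so these units need not sum to the same value in every library. In Cd31+ cells the level of Cdkn2a was 57.3, 36.7 and 75.6 CPM with nc shRNA and 9.19, 5.07 and 5.63 with P16 shRNA. It was 57.3, 32.3 and 81.5 with the empty vector and 224, 330 and 138 with P16. The labels held in every library: the groups did not overlap, and means were 11.8% of control with the hairpin and 4.05-fold with P16. In Cd146+ cells Cdkn2a was at 194, 126 and 95.1 CPM with nc shRNA, 7.70, 11.4 and 25.3 with P16 shRNA, 70.4, 103 and 104 with the empty vector and 832, 433 and 228 with P16. These groups did not overlap either, at 10.8% of control and 5.42-fold.

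Several measures of the cultures stood apart from their labels or moved with the hairpin. The summed level of 15 endothelial markers was 310 to 2750 CPM and that of 12 mesenchymal markers 6600 to 51000 CPM, Stab2, a sinusoidal marker, did not exceed 0.949 CPM, and hepatocyte and lymphoid markers were near 0. In Cd31+ cells endothelial sums were 517 to 1120 CPM with nc shRNA and 318 to 700 with P16 shRNA, and mesenchymal sums 20500 to 37400 and 23900 to 51000. In Cd146+ cells endothelial sums were 351 to 2080 and 310 to 1900 CPM, and mesenchymal sums 11000 to 27700 and 25200 to 31600. Endothelial sums there were 333 to 2750 CPM with P16 and 883 to 2470 with the empty vector, and in Cd31+ cells 866 to 2400 and 502 to 1930. Mesenchymal sums with P16 and the empty vector were 18300 to 28900 and 18500 to 35500 CPM in Cd31+ cells. In Cd146+ cells they were 12800 to 27900 and 6600 to 25900 CPM. In the Cd146+ libraries numbered 3 the endothelial marker Pecam1 was at 10.1 (nc shRNA), 4 (P16 shRNA) and 6.84 CPM (P16). The empty vector group held no library of that number, and its Pecam1 levels were 155, 134 and 263 CPM. Cholangiocyte markers summed to 100 to 792 CPM with nc shRNA and 189 to 979 with P16 shRNA in Cd31+ cells, and to 38 to 221 and 164 to 301 in Cd146+ cells. Macrophage markers summed to 20.1 to 416 CPM over the 24 libraries, at 44.6 to 149 and 37.3 to 122 in these Cd31+ groups and 27.6 to 334 and 20.1 to 308 in the Cd146+ groups. The summed level of 16 interferon response genes was 68.7 to 196 CPM with nc shRNA and 407 to 2010 CPM with P16 shRNA in Cd31+ cells, and 115 to 154 and 771 to 4120 CPM in Cd146+ cells. In each population 14 of the 15 tested were higher with the hairpin at an unadjusted p under 0.05 by edgeR, and 0 after adjustment. Of all genes, 19.8% in Cd31+ and 11.6% in Cd146+ cells passed that unadjusted threshold in either direction. With P16 these sums were 189 to 905 CPM, against 105 to 500 with the empty vector, in Cd31+ cells and 122 to 203, against 161 to 279, in Cd146+ cells. Xist exceeded 100 CPM in 8 libraries and was under 1 CPM in the other 16, which held the Y-linked Ddx3y at 52.4 to 168 CPM, although the methods name female mice. The part of these differences in the levels below was not tested, and in bulk RNA fewer cells of a type and less RNA per cell cannot be told apart.

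The member levels under P16 shRNA and nc shRNA are what chose the genes, so they are given as a description without a test. In Cd31+ cells the 3 P16 shRNA libraries lay below the 3 nc shRNA libraries for all 10 genes, where 12.6% of all genes tested did the same. In Cd146+ cells this again held for all 10, against 10.4% of genes. The 3 hairpin libraries were also below the other 9 libraries of the population for all 10 genes in each population, against 5.04% of genes in Cd31+ and 3.66% in Cd146+ cells. The edgeR quasi-likelihood test called 1.3% of all genes in Cd31+ cells at an adjusted p under 0.05 in either direction and 19.8% at an unadjusted p under 0.05. The corresponding shares in Cd146+ cells were 0% and 11.6%. With the hairpin the genes were left at 26.0 to 46.5% of control in Cd31+ cells and 20.3 to 50.6% in Cd146+ cells. The median log2 fold change of the 10 was -1.69 in Cd31+ and -1.44 in Cd146+ cells, where the medians of all genes were 0 and 0.03.

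**Figure D2:**
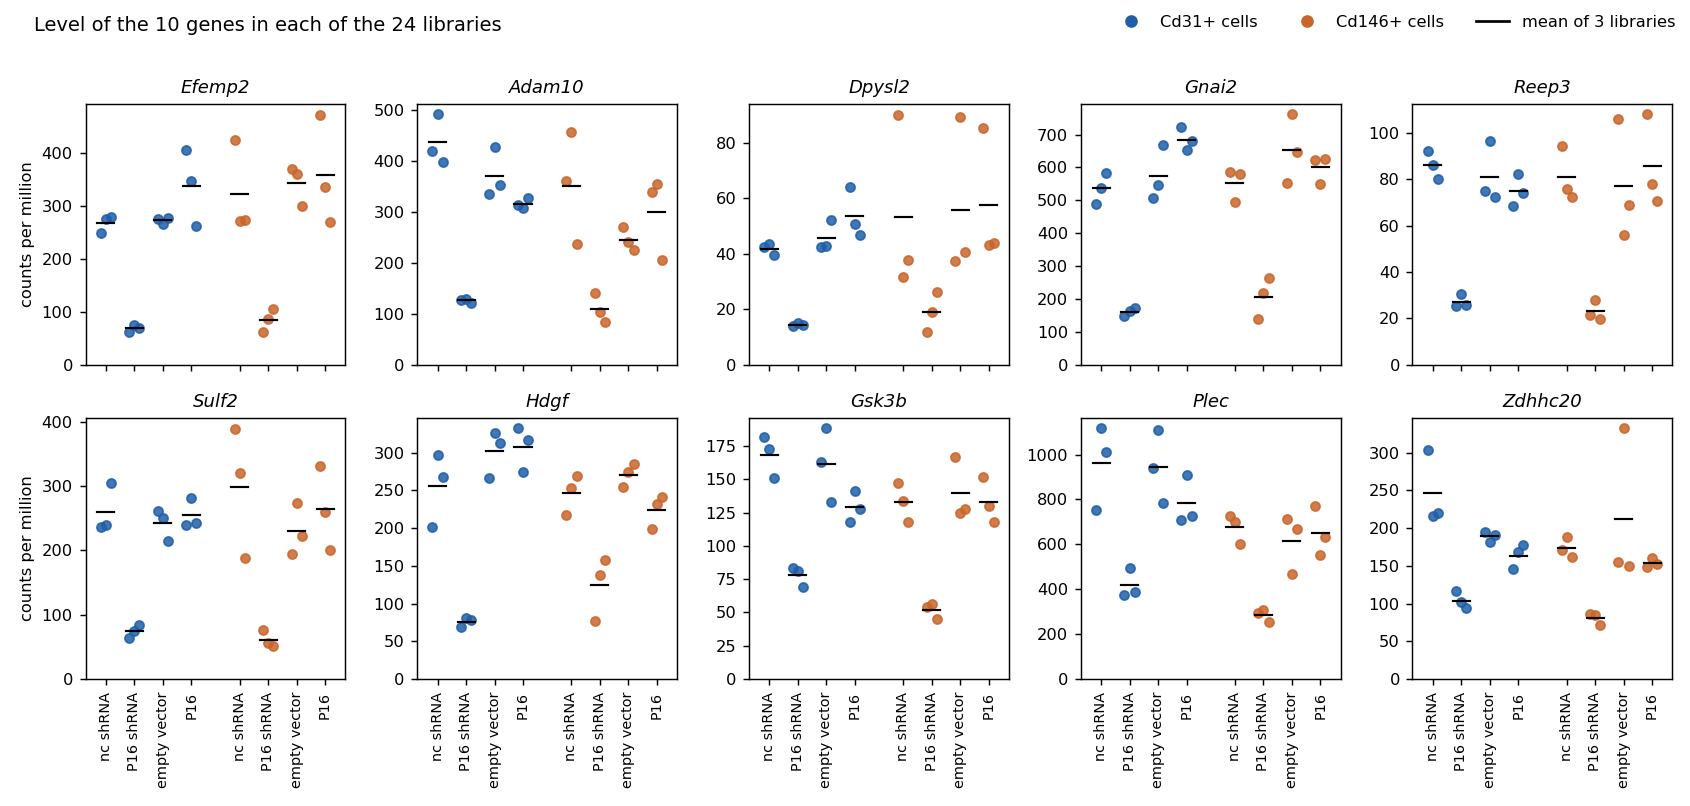
Level of each gene in CPM (TMM-scaled) on a linear axis, with 1 point for each of the 24 libraries and the group means as lines. Groups are nc shRNA, P16 shRNA, empty vector and P16 in Cd31+ and Cd146+ cells. The P16 shRNA points lie below all others of their population for the 10 genes. The ranges of the P16 and empty vector points overlap except for Adam10 and Zdhhc20 in Cd31+ cells and Hdgf in Cd146+ cells. Single P16 points often lie outside the empty vector range.

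The genes that act outside the cell or at its surface are described first. Gene coordinates below are those of the deposited table, which names no build and differs from GRCm38, so they cannot be set beside the coordinates of the sites above. Efemp2 (ENSMUSG00000024909, chromosome 19, 5523982 to 5532545, plus strand) had 249, 276 and 280 CPM with nc shRNA in Cd31+ cells and 62.0, 75.4 and 69.7 CPM with P16 shRNA. It was at 276, 266 and 278 CPM with the empty vector and at 405, 347 and 262 CPM with P16. Both control groups lay close together, the hairpin libraries were at about the same low level, and 2 of 3 P16 libraries were above every empty vector library. In Cd146+ cells Efemp2 was at 424, 272 and 274 CPM with nc shRNA, 61.2, 85.7 and 106 CPM with P16 shRNA, 369, 361 and 300 CPM with the empty vector and 472, 335 and 270 CPM with P16. The hairpin log2 fold change was -1.94 (SE 0.12) in Cd31+ and -1.93 (SE 0.30) in Cd146+ cells. With P16 it was 0.31 (95% interval -0.09 to 0.71, edgeR adjusted p = 0.947) and 0.07 (-0.52 to 0.67, edgeR adjusted p = 0.997), so a rise was not shown in either population.

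Sulf2 (ENSMUSG00000006800, chromosome 2, 165915009 to 165997583, minus strand) edits the heparan sulfate chains that hold growth factors. In Cd31+ cells it had 237, 239 and 305 CPM with nc shRNA, 64.4, 74.1 and 84.3 with P16 shRNA, 262, 250 and 215 with the empty vector and 240, 281 and 242 with P16. Cd146+ cells had 389, 321 and 188 CPM with nc shRNA, 75.7, 55.5 and 50.7 with P16 shRNA, 194, 274 and 222 with the empty vector and 331, 260 and 201 with P16. The control libraries of Cd146+ cells spread more widely, and the hairpin libraries still lay below all of them. Its hairpin log2 fold change was -1.79 (SE 0.16) in Cd31+ and -2.30 (SE 0.32) in Cd146+ cells, the latter being the lowest of the 10 in that population. P16 gave 0.07 (-0.26 to 0.40, edgeR adjusted p = 0.971) and 0.20 (-0.39 to 0.80, edgeR adjusted p = 0.991).

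Adam10 (ENSMUSG00000054693, chromosome 9, 70586279 to 70687511, plus strand) is the protease that makes the first cut of a ligand-bound Notch receptor. Its level in Cd31+ cells was 419, 491 and 398 CPM with nc shRNA, 127, 130 and 122 with P16 shRNA, 335, 426 and 352 with the empty vector and 313, 308 and 327 with P16. The 3 P16 libraries were all below the 3 empty vector libraries, on the same side as the hairpin. The log2 fold change with P16 was -0.23 (-0.56 to 0.10, edgeR adjusted p = 0.947), against -1.77 (SE 0.11) with the hairpin. In Cd146+ cells Adam10 had 360, 456 and 237 CPM with nc shRNA, 141, 104 and 84.8 with P16 shRNA, 270, 240 and 225 with the empty vector and 338, 355 and 206 with P16. There the hairpin value was -1.67 (SE 0.31), and P16 gave 0.30 (-0.27 to 0.86, edgeR adjusted p = 0.986) with groups that overlapped.

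Of the signalling genes, Gnai2 (ENSMUSG00000032562, chromosome 9, 107491324 to 107512566, minus strand) couples receptors to the inhibition of adenylyl cyclase. In Cd31+ cells its level was 489, 538 and 584 CPM with nc shRNA, 150, 163 and 172 with P16 shRNA, 507, 546 and 667 with the empty vector and 722, 652 and 680 with P16. Cd146+ cells had 586, 495 and 581 CPM with nc shRNA, 139, 220 and 263 with P16 shRNA, 554, 762 and 647 with the empty vector and 624, 551 and 626 with P16. The hairpin group lay below the others, and the P16 and empty vector libraries overlapped in both populations. The hairpin log2 fold change was -1.72 (SE 0.11) and -1.41 (SE 0.27) in the Cd31+ and Cd146+ cells. P16 gave 0.26 (-0.10 to 0.61, edgeR adjusted p = 0.947) in Cd31+ cells and -0.12 (-0.59 to 0.36, edgeR adjusted p = 0.995) in Cd146+ cells.

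Gsk3b (ENSMUSG00000022812, chromosome 16, 37909363 to 38066446, plus strand) had the smallest hairpin change of the 10 in Cd31+ cells. It was at 182, 173 and 151 CPM with nc shRNA, 83.1, 81.2 and 69.1 with P16 shRNA, 163, 189 and 133 with the empty vector and 118, 141 and 128 with P16. In Cd146+ cells it was at 147, 134 and 118 CPM with nc shRNA, 53.9, 56.7 and 44.8 with P16 shRNA, 167, 125 and 128 with the empty vector and 152, 130 and 118 with P16. Its levels in Cd146+ cells spread little within a group, and the hairpin log2 fold change there, -1.35 (SE 0.17), was close to that in Cd31+ cells, -1.10 (SE 0.12). P16 values were negative in both populations, -0.33 (-0.72 to 0.06, edgeR adjusted p = 0.947) and -0.06 (-0.49 to 0.37, edgeR adjusted p = 0.997).

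Among the cytoskeletal genes, Dpysl2 (ENSMUSG00000022048, chromosome 14, 67040313 to 67106137, minus strand) was expressed at a low level. In Cd31+ cells it had 42.6, 43.6 and 39.4 CPM with nc shRNA, 14.1, 14.9 and 14.5 with P16 shRNA, 42.3, 42.7 and 52.3 with the empty vector and 63.9, 50.7 and 46.6 with P16. The hairpin libraries of Cd31+ cells agreed closely with each other. Cd146+ cells had 90.0, 31.6 and 37.9 CPM with nc shRNA, 11.9, 19.0 and 26.1 with P16 shRNA, 37.4, 89.3 and 40.5 with the empty vector and 85.1, 43.0 and 44.0 with P16. Single libraries of 3 Cd146+ groups reached 85.1 to 90.0 CPM, and in that population this gene had the largest standard errors of the 10. The hairpin log2 fold change was -1.51 (SE 0.10) in Cd31+ and -1.48 (SE 0.49) in Cd146+ cells. P16 gave 0.23 (-0.14 to 0.60, edgeR adjusted p = 0.947) and 0.05 (-1.06 to 1.16, edgeR adjusted p = 0.998).

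Plec (ENSMUSG00000022565, chromosome 15, 76055174 to 76116774, minus strand) had the highest counts of the 10 genes. Its Cd31+ levels were 754, 1120 and 1010 CPM with nc shRNA, 375, 495 and 388 with P16 shRNA, 939, 1110 and 783 with the empty vector and 709, 911 and 728 with P16. Its Cd146+ levels were 725, 701 and 600 CPM with nc shRNA, 296, 309 and 254 with P16 shRNA, 713, 468 and 667 with the empty vector and 770, 553 and 631 with P16. The lowest control library, with the empty vector in Cd146+ cells, remained above every hairpin library of that population. The hairpin log2 fold change was -1.18 (SE 0.18) in Cd31+ and -1.23 (SE 0.17) in Cd146+ cells. P16 gave -0.27 (-0.72 to 0.18, edgeR adjusted p = 0.947) and 0.10 (-0.47 to 0.66, edgeR adjusted p = 0.997).

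The membrane genes Reep3 and Zdhhc20 differed in size of change. Reep3 (ENSMUSG00000019873, chromosome 10, 66844968 to 66932724, minus strand) had 92.2, 86.3 and 80.1 CPM with nc shRNA in Cd31+ cells, 25.4, 30.4 and 25.6 with P16 shRNA, 74.7, 96.5 and 72.2 with the empty vector and 68.5, 82.3 and 74.0 with P16. Cd146+ cells had 94.1, 75.8 and 72.5 CPM with nc shRNA, 21.6, 27.8 and 19.8 with P16 shRNA, 106, 56.0 and 68.9 with the empty vector and 108, 77.9 and 70.5 with P16. The P16 and empty vector libraries of Reep3 overlapped in both populations. Its hairpin log2 fold change was -1.65 (SE 0.12) and -1.80 (SE 0.20), and with P16 it was -0.11 (-0.48 to 0.26, edgeR adjusted p = 0.957) and 0.16 (-0.52 to 0.85, edgeR adjusted p = 0.995).

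Zdhhc20 (ENSMUSG00000021969, chromosome 14, 58070160 to 58127733, minus strand) had 304, 216 and 220 CPM with nc shRNA in Cd31+ cells, 116, 102 and 94.1 with P16 shRNA, 195, 182 and 191 with the empty vector and 146, 168 and 177 with P16. All 3 P16 libraries were again below the 3 empty vector libraries, and all 3 nc shRNA libraries were above them. Cd146+ cells had 171, 188 and 162 CPM with nc shRNA, 86.1, 84.5 and 72.0 with P16 shRNA, 155, 333 and 150 with the empty vector and 148, 161 and 153 with P16. The empty vector library at 333 CPM, number 4 in the labels, also had the group's 89.3 CPM of Dpysl2, and its Col1a1 level of 454 CPM was the lowest of the 24. Zdhhc20 had a hairpin log2 fold change of -1.23 (SE 0.17) in Cd31+ and -1.09 (SE 0.16) in Cd146+ cells. P16 gave -0.21 (-0.51 to 0.09, edgeR adjusted p = 0.947) and -0.46 (-1.30 to 0.37, edgeR adjusted p = 0.986).

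Hdgf (ENSMUSG00000004897, chromosome 3, 87813628 to 87823439, plus strand) differed most of the 10 between the populations in its hairpin value, a difference that was not tested. It had 202, 297 and 268 CPM with nc shRNA in Cd31+ cells, 69.1, 80.5 and 77.7 with P16 shRNA, 267, 326 and 313 with the empty vector and 333, 275 and 317 with P16. In Cd146+ cells it had 218, 253 and 269 CPM with nc shRNA, 76.5, 138 and 158 with P16 shRNA, 254, 274 and 285 with the empty vector and 199, 232 and 241 with P16. The Cd146+ hairpin libraries spread from 76.5 to 158 CPM, and the log2 fold change was -0.98 (SE 0.29) there and -1.74 (SE 0.16) in Cd31+ cells. With P16 all 3 Cd146+ libraries were below those of the empty vector, at -0.27 (-0.63 to 0.09, edgeR adjusted p = 0.986), and in Cd31+ cells the value was 0.03 (-0.30 to 0.36, edgeR adjusted p = 0.987).

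**Figure D3:**
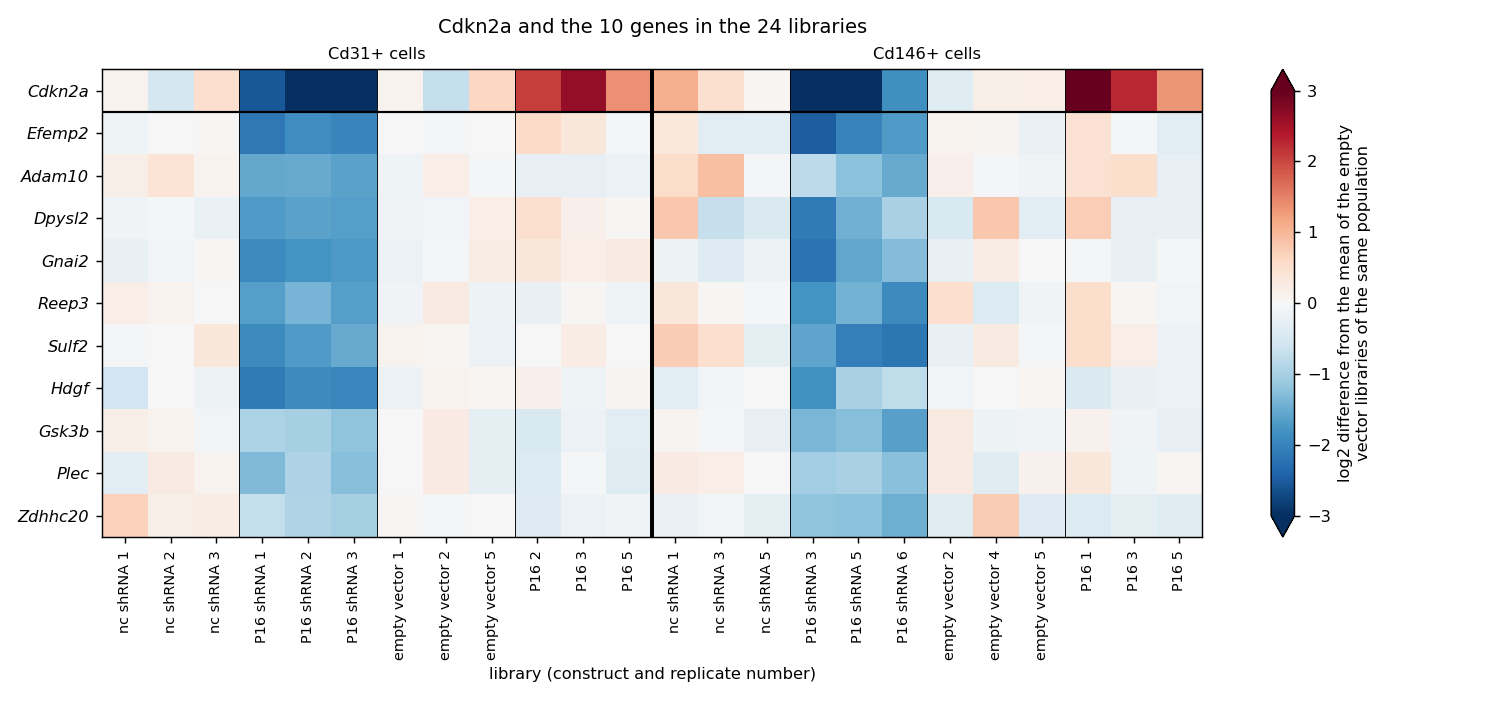
Level of each gene and of Cdkn2a in each of the 24 libraries as a log2 difference from the mean of the empty vector libraries of the same population, as colours that saturate at -3 and 3. The 10 genes are low in the 6 P16 shRNA libraries and closer to the empty vector mean in the other libraries, while Cdkn2a is low with P16 shRNA and high with P16.

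Set beside each other, the P16 libraries did not move the 10 genes in one direction. In Cd31+ cells 5 of the 10 were higher and 5 lower than with the empty vector, with a median log2 fold change of -0.04 against 0.01 for all genes. In Cd146+ cells 6 were higher and 4 lower, with a median of 0.06 against 0. Efemp2, Dpysl2 and Sulf2 were higher in both populations, Gsk3b and Zdhhc20 were lower in both, and the other 5 differed in sign. With the replicate number as a block over 12 libraries, Efemp2 and Dpysl2 were again higher in both and Gsk3b lower in both. Sulf2 was then at -0.02 and -0.22, and Zdhhc20 was at 0.03 in Cd146+ cells, where only the empty vector library numbered 5 informs the blocked contrast. Without the Cd146+ empty vector library numbered 4, Zdhhc20 was at 0.04 there. None of the 10 passed the edgeR quasi-likelihood test at an unadjusted p under 0.05 in either population, where 3.73% of all genes in Cd31+ and 3.53% in Cd146+ cells did. Lowest unadjusted p values among the 10, from edgeR, were 0.0889 for Gsk3b in Cd31+ cells and 0.121 for Hdgf in Cd146+ cells. At an adjusted p under 0.05, 0% of all genes passed in either population, and DESeq2's Wald test called 4 and 1 genes, with no member among them. Cdkn2a itself, at 4.05-fold in Cd31+ and 5.42-fold in Cd146+ cells, had edgeR adjusted p values of 0.947 and 0.986. The adjusted p values of the 10 therefore do not show that these genes were unchanged.

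Groups of P16 and empty vector libraries did not overlap for 2 of the 10 in Cd31+ cells, Adam10 and Zdhhc20, and for 1 in Cd146+ cells, Hdgf, each time with P16 the lower. Over all genes the groups did not overlap in 10.9% and 8.73%. The upper bounds of the 95% intervals for P16 were 0.06 to 0.71 in Cd31+ and 0.09 to 1.16 log2 units in Cd146+ cells, so rises up to these sizes lie inside them. The difference between the populations in the effect of P16 was tested as an interaction over the 12 libraries, and it passed an unadjusted p under 0.05 for none of the 10, against 3.24% of all genes and 0% after adjustment. Adam10 had the lowest p of the interaction, 0.0877 by edgeR (adjusted p = 0.993), at a difference of 0.51 (-0.09 to 1.11).

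**Figure D4:**
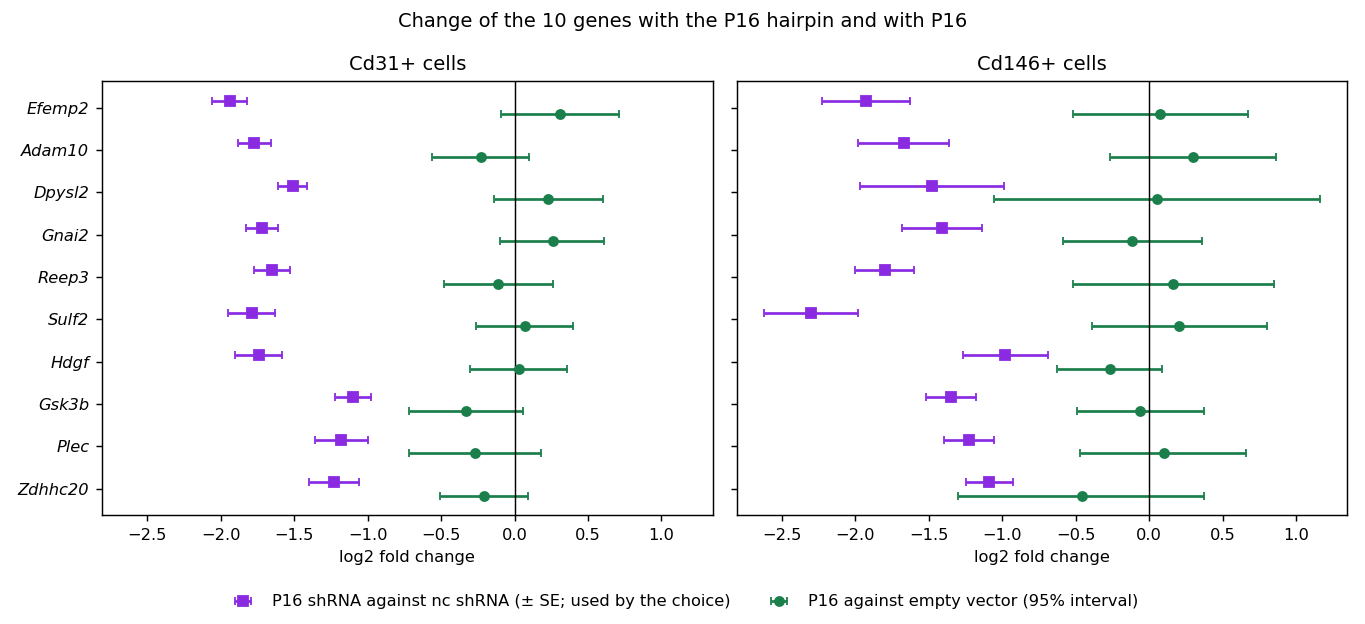
Log2 fold change of each gene with the P16 hairpin relative to its control hairpin and with P16 relative to the empty vector, in Cd31+ and Cd146+ cells. Bars give the SE for the hairpin and the 95% interval for P16. For the 10 genes the hairpin values lie between -2.3 and -0.98 and the P16 values between -0.46 and 0.31.

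The genes were also compared within pairs of libraries that share a replicate number. Over the 10 genes, the median log2 difference of P16 shRNA from nc shRNA was -1.65, -1.62 and -1.67 in the Cd31+ pairs numbered 1, 2 and 3, and -1.71 and -1.12 in the Cd146+ pairs numbered 3 and 5. No gene was higher in any of these pairs. P16 against the empty vector gave -0.19 and -0.06 in the Cd31+ pairs numbered 2 and 5, with 4 of 10 genes higher in each, and -0.10 in the Cd146+ pair numbered 5, with 3 of 10 higher. Cdkn2a itself was higher by 2.79 and 0.76 in these Cd31+ pairs, where the group fit gave 2.02. In the Cd146+ pair it was higher by 1.13, where the group fit gave 2.44. This single Cd146+ pair had the opposite sign to the median of 0.06 over its 6 libraries.

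The control hairpin stood near the empty vector for most of the genes. These comparisons share libraries with the choice of genes and are given as values. Median log2 differences of nc shRNA from the empty vector were 0.05 in Cd31+ cells, with a range of -0.24 to 0.39, and -0.07 in Cd146+ cells, with a range of -0.30 to 0.52. Zdhhc20 in Cd31+ cells, at 0.39, was the only gene whose nc shRNA and empty vector groups did not overlap. With P16 shRNA against the empty vector the medians were -1.61 and -1.48, the ranges were -1.99 to -0.86 and -2.00 to -1.09, and all 10 genes were below in each population.

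Per length, the genes spanned a wide range of levels. With the empty vector in Cd31+ cells the mean FPKM (fragments scaled to gene length and library size) was 149 for Gnai2, 103 for Hdgf, 74.1 for Adam10, 70.8 for Efemp2, 51.2 for Plec and 40.6 for Sulf2. Zdhhc20 followed at 25.8, Gsk3b at 16.2, Dpysl2 at 9.94 and Reep3 at 9.61 FPKM. Neighbours in this order overlapped in their library ranges for Adam10 and Efemp2, for Plec and Sulf2, and for Dpysl2 and Reep3. In Cd146+ cells the order began with Gnai2 at 172, Hdgf at 93.5 and Efemp2 at 89.7 FPKM and ended with Dpysl2 at 12.3 and Reep3 at 9.16 FPKM. Neighbours there stood apart after Gnai2, between Efemp2 and Adam10, and between Zdhhc20 and Gsk3b. Under the hairpin, Gnai2 was still the first, at 42.1 ± 3.03 FPKM in Cd31+ and 55 ± 17.7 FPKM in Cd146+ cells (SD, n = 3), and Dpysl2 and Reep3 were still the last, at 3.17 ± 0.107 and 3.23 ± 0.354 FPKM in Cd31+ cells.

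The populations were also compared under the empty vector. At an unadjusted p under 0.05 by edgeR, 3 of the 10 differed, against 6.12% of all genes, and after adjustment 0 of the 10 and 0% of all genes did. Adam10 was lower in Cd146+ cells by a log2 difference of -0.59 (-0.95 to -0.24, edgeR adjusted p = 0.727). Plec was at -0.61 (-1.14 to -0.09) and Efemp2 at 0.34 (0.03 to 0.65), both with an edgeR adjusted p of 0.727, and the libraries of the populations did not overlap for any of these 3 genes. With each library left out in turn, Adam10 stayed under that unadjusted threshold every time, Efemp2 only without the Cd146+ library numbered 5, and Plec only without the Cd31+ library numbered 5 or the Cd146+ library numbered 2. Under P16, Hdgf alone passed an unadjusted p under 0.05, at -0.46 (-0.84 to -0.07, edgeR adjusted p = 0.992), where 4.21% of all genes did and 0% after adjustment. It stayed under the threshold only without the Cd31+ P16 library numbered 3 or the Cd146+ P16 library numbered 5.

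The likeness of the 10 genes to each other rested on the hairpin libraries. Over 24 libraries, which share the hairpin's contrast and the populations, the 45 pairs of genes had a median Pearson r of 0.821 (0.624 to 0.967) in log2 CPM. Over the 18 libraries without P16 shRNA the median was -0.009 (-0.638 to 0.746), and 22 of the 45 pairs were positive. Among 16524 genes, those most like the mean of the 10 over 24 libraries were Rnf10 (r = 0.968), Nedd4 (0.968), Tollip (0.958), Mast2 (0.942) and Slc25a39 (0.941). Over the 18 libraries without the hairpin their r with the mean of the 10, scaled anew within those 18, was 0.596, 0.396, 0.579, 0.02 and -0.054.

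The choice of the 10 was not a clean cut of the ranking. Ordered by the edgeR test among the lower genes in Cd31+ cells, Efemp2, Adam10, Dpysl2, Gnai2 and Reep3 held places 1 to 5, Sulf2 and Hdgf places 8 and 10, and Gsk3b, Zdhhc20 and Plec places 26, 67 and 101. Rbl2 (log2 fold change -1.22), Pqlc3 (-1.01) and Tbx15 (-1.35) were not chosen and held places 6, 7 and 9. Just after Plec (-1.18) came Ctsa (-0.74), Tacc2 (-0.56) and Rab3ip (-1.01). In Cd146+ cells Reep3, Gsk3b, Plec and Sulf2 held places 1 to 4, and Dpysl2, the last of the 10, held place 460.

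A few relatives of the 10 genes are set beside them, named after their values were seen, so they do not stand for their families. In Cd31+ cells the log2 fold change with P16 shRNA was 0.07 (SE 0.10) for Gnai3 beside -1.72 for Gnai2, and 0.12 (SE 0.17) for Gsk3a beside -1.10 for Gsk3b. Sulf1, the other sulfatase of heparan sulfate, was at 0.53 (SE 0.16, edgeR adjusted p = 0.148) and Adam17, a protease related to Adam10, at 0.16 (SE 0.10). Reep4 was at 0.07 (SE 0.10). Other relatives of Adam10 were lower, with Adam9 at -0.40 (SE 0.14), Adam15 at -0.49 (SE 0.22) and Adam19 at -0.49 (SE 0.16). Of 18 tested genes in the sheddase and gamma-secretase list described below, 11 were lower. In Cd146+ cells Gnai3 was at 0.14 (SE 0.17), Gsk3a at 0.21 (SE 0.15), Sulf1 at 0.16 (SE 0.32), Adam17 at 0.05 (SE 0.18) and Reep4 at 0.49 (SE 0.24).

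Wider families and pathways were read from 10 lists, and the 10 genes themselves were left out. With P16 in Cd31+ cells 4 of 106 listed genes passed an unadjusted p under 0.05 (3.77%, with 2 lower and 2 higher), and in Cd146+ cells 4 of 105 did (3.81%, all higher). With the hairpin in Cd31+ cells the median over 105 listed genes was -0.17, 67 were lower, and 21 lower and 7 higher genes passed an unadjusted p under 0.05 (26.7%). After adjustment 4 passed (3.81%): Gna12, a G protein subunit (-0.55, edgeR adjusted p = 0.0408), Ext1, which builds heparan sulfate chains (-0.75, edgeR adjusted p = 0.0383), and the palmitoyltransferase Zdhhc2 (-1.23, edgeR adjusted p = 0.0316) fell, and Dpysl5, a relative of Dpysl2 (1.45, edgeR adjusted p = 0.0279), rose. Without any 1 of the 3 P16 shRNA libraries of Cd31+ cells, no gene of the whole table passed the adjusted test. With the replicate number as a block over 12 libraries, 22 listed genes fell and 10 rose of 107 in Cd31+ cells (29.9%, all genes 16.8%), and 14 fell and 4 rose of 107 in Cd146+ cells (16.8%, all genes 8.33%). Without the block 0 of 107 passed after adjustment in Cd146+ cells, with 13 lower and 2 higher at an unadjusted p under 0.05.

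By list, counts at an unadjusted p under 0.05 are to be read against 19.8% of all genes in Cd31+ and 11.6% in Cd146+ cells. The palmitoyltransferases had 15 of 18 tested genes lower with the hairpin in Cd31+ cells, with 7 lower and 1 higher at an unadjusted p under 0.05 by edgeR and a median of -0.27. The elastic fibre list had 10 of 13 lower, the G protein list 10 of 14 and the sheddase and gamma-secretase list 11 of 18, each with 3 lower at that threshold. In the heparan sulfate list 9 of 17 were lower, with 3 lower and 3 higher at that threshold. The beta-catenin destruction complex had 5 of 9 lower and the REEP family 1 of 5, and neither had a gene past the threshold. The plakins had 3 of 5 lower with 1 past the threshold, the HDGF family 2 of 3 lower with 1 higher past it, and the collapsin response mediators 2 of 3 lower with 1 lower and 1 higher past it. In Cd146+ cells 3 of 19 palmitoyltransferases, 3 of 14 G protein genes and 2 of 5 plakins were lower at that threshold, and 5 lower and 1 higher of 17 heparan sulfate genes. There the REEP family had 1 of 5 higher, and the elastic fibre (14 tested), sheddase (18), destruction complex (9), HDGF (3) and collapsin response (3) lists had none past it. In Cd31+ cells the most abundant gene of each list was at log2 fold changes of -0.59 (Fbln2), -0.40 (Adam9), -0.32 (Dpysl3), -0.36 (Gnb1), 0.04 (Reep5), 0.34 (Sdc4), 0.48 (Hdgfl2), -0.07 (Ctnnb1), -0.23 (Dst) and -0.32 (Zdhhc5), none with an adjusted p under 0.05 by edgeR.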

How the data were processed

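RNA sequencing of 24 libraries was analysed, 3 in each of 8 groups. The count values deposited by the authors are whole reads per gene, not normalized, and their FPKM values, which the authors deposited for the same libraries, served only for order by level. Gene length was taken as deposited. Per the labels' processing notes fastp and mm9 were used; aligner, counter and annotation are not given in the sources used here. The file names no build, its gene coordinates, printed as given, differ from GRCm38, and they were not checked against mm9. Columns of the authors' own comparisons (fold changes and p values) were not used.

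The 10 genes, the lists of related genes and the markers were chosen with earlier results of these data known. Named genes were the 10, Cdkn2a, the most abundant and any called gene of each list, the genes most alike and those at the edge of the choice. Gnai3, Gsk3a, Sulf1, Adam15, Adam17, Adam19 and Reep4 were named outside this rule, after their values were seen. Each comparison was fitted on the 6 libraries of its groups with edgeR 4.0.16 (R 4.3.3; filterByExpr, TMM, robust quasi-likelihood test, two-sided, Benjamini-Hochberg adjustment over all genes tested), with errors from the F statistic and 95% intervals. The interaction used 12 libraries. DESeq2 1.42.0 gave alternatives, and the code was tested on simulated counts. Correlations used log2 CPM with a prior count of 0.5. CPM are scaled by TMM. Words were searched on the transcript strand of 1 GENCODE transcript a gene.

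Replicate numbers come from the labels, which do not say what they stand for. With group means removed, the median r between libraries of equal number was 0.475 in Cd31+ cells (13 pairs, 0.32 or above) and 0.686 in Cd146+ cells (10 pairs, 0.378 or above). Between unequal numbers it was -0.165 (41 pairs) and -0.0769 (44 pairs), so the numbers were taken to pair the samples. The main fits held no term for the number, so their p values, errors and intervals are unpaired. The pairing entered only the comparison within pairs and the alternatives with a replicate block. No source says that replicates were separate animals, so p values measure the spread between these libraries, which may be technical.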

Additional observations from a re-analysis of the deposited data

How the results depend on the processing

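No member passed an adjusted p under 0.05 in any tested comparison under any alternative (700 values, the lowest adjusted p 0.0602 for Adam10 between populations under the empty vector by DESeq2's Wald test). The hairpin values kept their sign under every alternative, at -2.02 to -1.03 in Cd31+ and -2.55 to -0.72 in Cd146+ cells.

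With a replicate block over the 12 libraries of a population, P16 against the empty vector changed sign for Sulf2 (-0.02) and Hdgf (-0.03) in Cd31+ cells. It also changed sign for Adam10 (-0.05), Gnai2 (0.06), Sulf2 (-0.22), Plec (-0.11) and Zdhhc20 (0.03) in Cd146+ cells, where the empty vector enters only through number 5. The interaction under a block over 24 libraries changed sign for Sulf2 (-0.20) and Zdhhc20 (0.14). Members with an unadjusted p under 0.05 for P16 in Cd31+ cells went from 0 to 1 with the block and to 2 in 1 fit over 12 libraries. The pairing changed no other call of a member in the comparisons that were tested. Over all genes, calls at an adjusted p under 0.05 depended on the kind of block. For the hairpin in Cd31+ cells they went from 186 to 2703 within the 2 groups and 2586 over 12 libraries, and in Cd146+ cells from 0 to 0 and 1326. For P16 in Cd31+ cells they went from 0 to 92 and 1, and in Cd146+ cells, over 12 libraries, from 0 to 2.

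A term for Xist, added after seeing the data, gave -0.06 for Efemp2 (P16 in Cd146+ cells) and 0.05 for Reep3 (between populations, empty vector).

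Leaving out 1 library at a time, the member medians ranged from -0.11 to 0.07 for P16 in Cd31+, from -0.17 to 0.16 in Cd146+ cells, from -0.15 to 0.20 for the interaction and from -0.19 to 0.01 between populations under the empty vector. Counts of members at an unadjusted p under 0.05 were 0 to 1 for P16 in each population and for the interaction, 1 to 2 between populations under the empty vector and 0 to 1 under P16. Signs changed in these ranges: for P16 in Cd31+ cells, Hdgf -0.05 to 0.11, Reep3 -0.19 to 0.04 and Sulf2 -0.01 to 0.13; for P16 in Cd146+ cells, Dpysl2 -0.37 to 0.58, Gsk3b -0.18 to 0.08, Gnai2 -0.23 to 0.02, Reep3 -0.05 to 0.45, Plec -0.06 to 0.22, Zdhhc20 -0.66 to 0.04, Efemp2 -0.19 to 0.23 and Sulf2 -0.01 to 0.36. For the interaction they were Dpysl2 -0.60 to 0.34, Zdhhc20 -0.46 to 0.24 and Sulf2 -0.07 to 0.29. Between populations under the empty vector they were Reep3 -0.37 to 0.11, Sulf2 -0.22 to 0.05, Dpysl2 -0.23 to 0.52 and Zdhhc20 -0.31 to 0.38, and under P16 Gsk3b -0.04 to 0.13, Efemp2 -0.14 to 0.25, Dpysl2 -0.28 to 0.27, Sulf2 -0.12 to 0.21 and Adam10 -0.21 to 0.13. The cause of these changes was not tested.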
